A study of Homo sapiens with 12 samples.

Results

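Pull-down peaks near chromosome ends are the regions of the deposited G-quadruplex peak list whose centre lies within 2 Mb of the end of an autosome. The near end was base 1 of the chromosome. The far end was the largest gene locus end listed for that chromosome in the RNA table of the 3 h time point. The rule used position alone, and 2124 of 51446 deposited peaks met it. The other autosomal peaks, 46304 in number, served for comparison, and 3018 peaks on the sex chromosomes, the mitochondrial chromosome and unplaced scaffolds were left out of it.

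The DNA came from HEK 293T, an established line of human embryonic kidney cells that carries the large T antigen of the virus SV40. Purified genomic DNA was annealed and G-quadruplexes were pulled down with a small molecule in 2 samples, beside 2 input samples. RNA was measured in the same line after 1 µM PDP, a compound known here only by its code name, for 3 h, 24 h or 72 h, and after DMSO for 3 h, with 2 samples a group. The labels do not say whether samples of a group came from separate cultures. The DNA was purified and annealed before capture, so the peaks describe DNA without its chromatin. The peak list names both pull-down replicates for every peak and gives 1 averaged score, whose unit is not stated. No value per replicate is used here, so intervals cover counting error only and the depth of the libraries is unknown.

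A G-quadruplex is a four-stranded fold of guanine-rich DNA in which guanines pair in flat squares that stack on one another. Telomere repeats, which cap the chromosomes, are guanine-rich and are known to fold this way, and many gene promoters carry runs of guanines that can do so too. The 2 Mb windows examined here lie inside the telomeres, in subtelomeric sequence that is rich in genes and in GC on many human chromosomes. Telomere repeats themselves were not analysed here.

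Few peaks lay where the sequence could be read from the RefSeq promoter table (GRCh38.p14), which covers 250 bases before to 50 bases after transcript starts. The pieces below are bases upstream of a start that fell inside an end-window peak, shown because they let the guanine content of captured sequence be seen directly. Of 10 such pieces of at least 30 bases, from 8 genes, 6 are printed, including the one with the fewest runs and the lowest GC content, before OR14I1. Each is given 5′ to 3′ on the strand of its gene, and capitals mark runs of 3 or more G or of 3 or more C, the latter being G runs on the opposite strand.

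LOC105372841, chr21:45978255-45978504, plus strand, peak score 36.9: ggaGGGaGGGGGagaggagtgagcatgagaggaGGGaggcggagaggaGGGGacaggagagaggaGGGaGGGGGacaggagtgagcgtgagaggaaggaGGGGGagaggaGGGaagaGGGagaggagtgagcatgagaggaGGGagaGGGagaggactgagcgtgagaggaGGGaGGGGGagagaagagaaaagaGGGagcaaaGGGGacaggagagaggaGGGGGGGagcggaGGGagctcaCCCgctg
LINC00659, chr20:62777005-62777106, minus strand, peak score 33.85: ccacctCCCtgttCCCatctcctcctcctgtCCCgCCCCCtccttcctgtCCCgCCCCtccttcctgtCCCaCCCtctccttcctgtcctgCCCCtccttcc
LOC124904954, chr20:63678381-63678625, minus strand, peak score 14.9: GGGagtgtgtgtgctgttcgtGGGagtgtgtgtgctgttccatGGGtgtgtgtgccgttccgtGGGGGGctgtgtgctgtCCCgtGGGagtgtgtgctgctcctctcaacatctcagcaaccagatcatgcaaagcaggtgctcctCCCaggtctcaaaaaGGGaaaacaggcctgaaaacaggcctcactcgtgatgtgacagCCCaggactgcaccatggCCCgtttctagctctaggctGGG
OR14I1, chr1:248702876-248703016, minus strand, peak score 12.85: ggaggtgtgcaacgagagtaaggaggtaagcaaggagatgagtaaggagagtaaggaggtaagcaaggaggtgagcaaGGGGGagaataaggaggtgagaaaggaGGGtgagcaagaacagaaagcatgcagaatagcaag
PRKAR1B, chr7:727663-727836, minus strand, peak score 9.245: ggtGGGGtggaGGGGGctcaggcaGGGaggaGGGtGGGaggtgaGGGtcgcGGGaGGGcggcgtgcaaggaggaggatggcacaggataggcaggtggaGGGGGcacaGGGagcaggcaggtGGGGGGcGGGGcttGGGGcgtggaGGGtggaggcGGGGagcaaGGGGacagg
KRTAP10-12, chr21:44696922-44697171, plus strand, peak score 8.04: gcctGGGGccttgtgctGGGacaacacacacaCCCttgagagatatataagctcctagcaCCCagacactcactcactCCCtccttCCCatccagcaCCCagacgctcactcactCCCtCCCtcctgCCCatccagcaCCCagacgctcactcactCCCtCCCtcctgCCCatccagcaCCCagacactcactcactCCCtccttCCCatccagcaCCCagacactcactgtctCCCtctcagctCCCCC

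The piece before LOC105372841, a noncoding transcript 0.713 Mb from the far end of chromosome 21, held 17 runs of 3 or more G and 145 G among 250 bases. The piece before PRKAR1B, a regulatory subunit of protein kinase A, held 16 such runs in 174 bases with no C run. The strand was reversed before KRTAP10-12, a hair keratin-associated protein gene inside the TSPEAR locus, where 18 runs of C and 2 of G were counted. The LINC00659 piece, before a noncoding gene 1.55 Mb from the far end of chromosome 20, held 9 runs of C in 102 bases. Short repeats were visible in both chromosome 21 pieces: the commonest stretch of 12 bases occurred 4 times in each, and the LINC00659 piece repeated its own 3 times. The piece before LOC124904954, a noncoding transcript inside the telomere helicase gene RTEL1, opened with GGG runs among gt repeats and held 7 G runs in 245 bases. The piece before the olfactory receptor gene OR14I1, near the sparse far end of chromosome 1, held 2 G runs in 141 bases and a GC content of 49.6%. Over the 10 pieces GC content ranged from 49.6 to 75.5%. A compact G-quadruplex motif was searched on both strands as 4 runs of at least GGG, or of at least CCC on the other strand, with 1 to 7 bases of any kind between runs. Of the 6 pieces printed, the PRKAR1B piece alone held it. The peak with the lower score of 9.245 therefore contained the motif, while the pieces from peaks scored 36.9 and 33.85 did not. A peak can hold further sequence outside the piece.

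Peaks were denser near chromosome ends than elsewhere on the autosomes. The windows covered 88 Mb, or 3.06% of autosomal length, and held 4.39% of the autosomal peaks (95% exact binomial interval 4.21 to 4.57%). Density was 24.1 peaks per Mb (95% exact Poisson interval 23.1 to 25.2) in the windows and 16.6 per Mb (16.5 to 16.8) elsewhere. The ratio was 1.45 (95% interval 1.39 to 1.52, exact conditional binomial test, two-sided, p = 5.69e-57), and this p is too small because neighbouring peaks are not independent. The ratio was larger for peaks of higher score, 1.83 at or above the median score and 2.29 (2.13 to 2.46) at or above the upper quartile, and smaller with windows of 500 kb, 1.11 (1.01 to 1.23). Against the density of each autosome's own remaining length, 1498 peaks would stand in the windows, which gave a ratio of 1.42 (1.36 to 1.48). With each autosome taken as 1 unit, the windows were denser in 18 of 22 autosomes (exact sign test, two-sided, p = 0.00434).

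The autosomes differed widely in this contrast. Chromosome 7 held 194 peaks in its windows, 48.5 per Mb against 17.5 per Mb over the rest of that chromosome. Chromosomes 5, 12, 4, 16 and 10 followed with densities 2.19, 1.97, 1.88, 1.81 and 1.80 times those of their remaining length. Windows were less dense than the rest on chromosomes 1, 3, 14 and 18. Chromosome 1 was the furthest in that direction, with 28 peaks in its windows and 7 per Mb against 21.2 per Mb. Without chromosome 7 the pooled ratio was 1.39, and over all single autosomes left out in turn it ranged from 1.39 to 1.54. The first windows of chromosomes 13, 14, 15, 21 and 22, whose short arms consist largely of repeats, hold no gene locus and no peak, yet their length is counted in these densities. On chromosome 14 the far-end window alone had 25.5 per Mb, above the 15.1 per Mb of the rest. With 1 Mb bins that hold no locus left out, the pooled ratio was 1.555 (1.489 to 1.625). The windows were then denser in 19 of 22 autosomes (exact sign test, p = 0.000855). HEK 293T is known to be aneuploid, and the part of copy number, base composition and assembly gaps in the density was not tested.

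**Figure D1:**
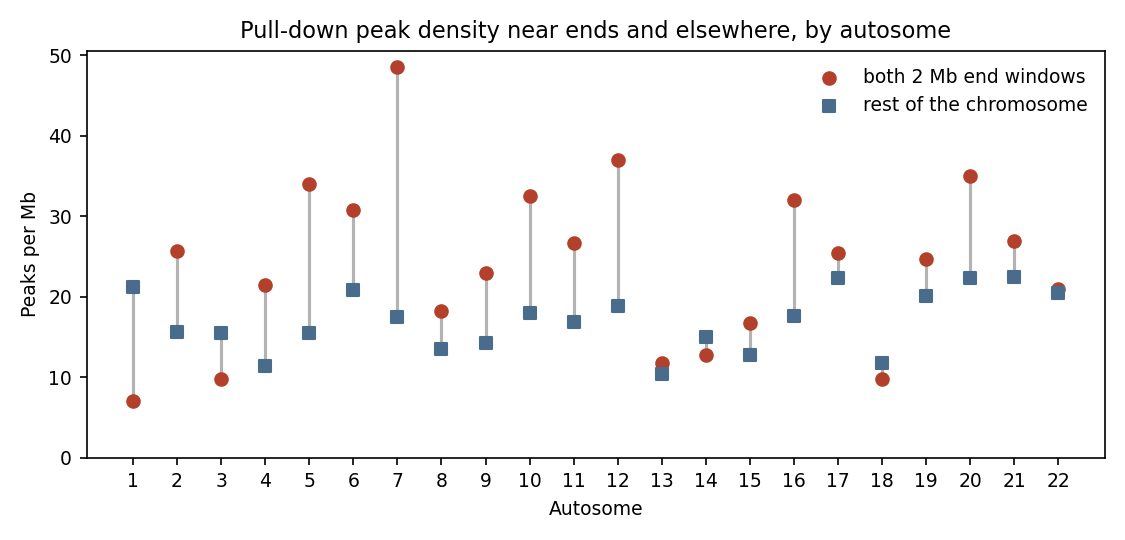
Peaks per Mb (vertical axis) in the 2 end windows together (circles) and in the rest of each autosome (squares), 1 pair per autosome on the horizontal axis. The circle lies above the square in 18 of 22 autosomes, by most on chromosome 7, and below it on chromosomes 1, 3, 14 and 18. The circles of chromosomes 13, 14, 15, 21 and 22 include a start window with no locus and no peak.

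The 39 ends with a gene locus held 5 to 111 peaks, with a median of 54. The densest window was the far end of chromosome 7 with 111 peaks, or 55.5 per Mb (95% exact Poisson interval 45.7 to 66.8). It was followed by the far ends of chromosome 21 with 108 peaks, of chromosome 12 with 95 and of chromosome 20 with 91, and by the start of chromosome 5 with 85. Counting intervals of these 5 windows overlap, so their order is not resolved. At the other end of the range, the far end of chromosome 1 held 5 peaks, or 2.50 per Mb (0.812 to 5.83), although 107 genes are listed there. The starts of chromosomes 18 and 9 held 11 and 15 peaks, and the far ends of chromosomes 3 and 4 held 18 each. These 5 windows lie below the autosomal density elsewhere, and their intervals do not reach the intervals of the 5 densest. Within single chromosomes the pair of ends also differed: on chromosome 4 the start held 68 peaks and the far end 18, and on chromosome 9 the start held 15 and the far end 77. Over all chromosomes, 17 start windows with a locus held 804 peaks, 23.6 per Mb, and 22 far-end windows held 1320, 30 per Mb. The 2 kinds of window are not set alike, since starts count from base 1 and far ends from the last gene locus. The far ends also include 5 whose start window holds no locus, and the difference between the kinds was not tested. Set against interior 2 Mb windows of its own chromosome that hold a gene locus, the far end of chromosome 7 was denser than all 75. The far ends of chromosomes 10, 20 and 21 were likewise denser than all 63, all 30 and all 20. Of the 39 ends, 31 lay above the median of such windows, 17 above 90% of them and 1 below 10%.

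**Figure D2:**
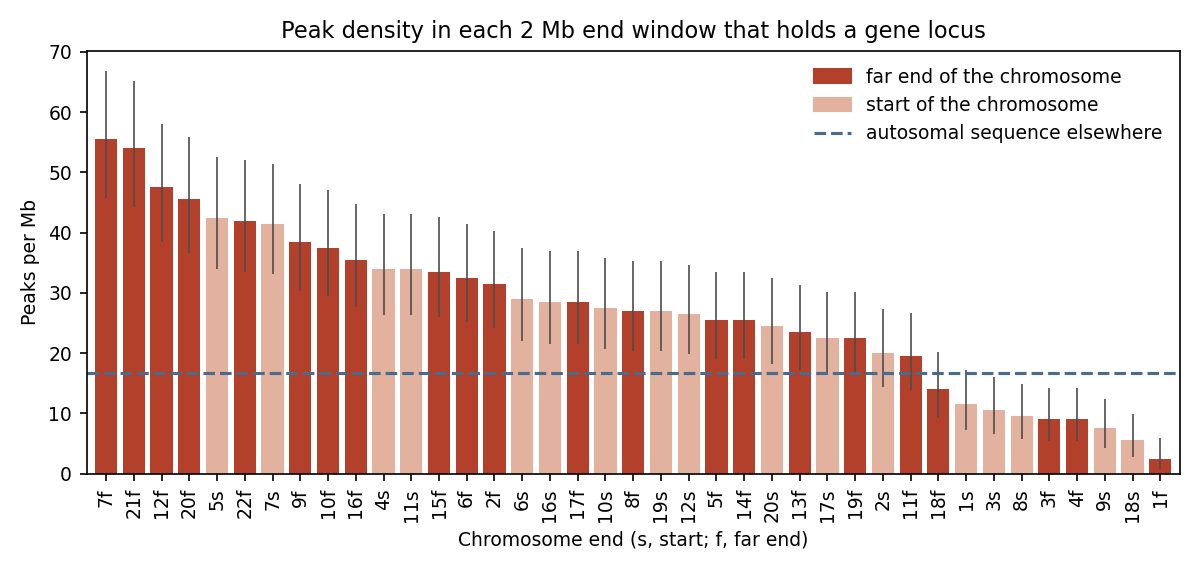
Peaks per Mb in each of the 39 end windows that hold a gene locus, sorted, with s for the start and f for the far end of the numbered chromosome; lines are 95% exact Poisson intervals. The windows run from 55.5 per Mb at the far end of chromosome 7 to 2.50 per Mb at the far end of chromosome 1, and the dashed line marks 16.6 per Mb elsewhere.

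Density was lowest in the outermost sequence of the windows. In the first 250 kb from an end the density was 17.3 peaks per Mb (95% exact Poisson interval 14.8 to 20.2), an interval that includes the density elsewhere. It was 24.9 per Mb from 250 to 500 kb, 27.6 from 0.5 to 1 Mb and 31.7 (29.3 to 34.3) from 1 to 1.5 Mb. The last stretch inside the limit, from 1.5 to 2 Mb, had 28.5 per Mb. The genes listed per Mb fell over the same stretches, from 52.1 in the first 250 kb to 39.8 from 1 to 1.5 Mb and 31.2 from 1.5 to 2 Mb. Beyond the limit the density declined gradually, with 27.1 per Mb from 2 to 3 Mb, 23.4 from 4 to 6 Mb and 20.3 from 8 to 10 Mb. The 2 Mb limit therefore does not mark a step. Just inside it stood a peak at chr22:48801977-48802417 with a score of 14.15, and just outside a peak at chr22:48801082-48801484 with a score of 13.35, both in the FAM19A5 locus. Within 100 kb of the limit, 120 peaks lay inside with a median score of 13.6 and 112 outside with a median of 11.6. Over the wider stretches beyond the limit the median score was 12.5 from 2 to 3 Mb and 12.3 from 3 to 4 Mb, about that of the windows, and 11.4 from 4 to 6 Mb. With windows of 500 kb, 15 of 22 autosomes were denser near their ends (exact sign test, p = 0.134). With windows of 5 Mb the count was again 15 (exact sign test, p = 0.134), and with windows of 1 Mb it was 17 (exact sign test, p = 0.0169). The call over autosomes thus holds at 1 Mb and 2 Mb and not at 500 kb or 5 Mb. The pooled density ratio was 1.287 (1.206 to 1.372) with windows of 1 Mb and 1.455 (1.414 to 1.498) with windows of 5 Mb.

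**Figure D3:**
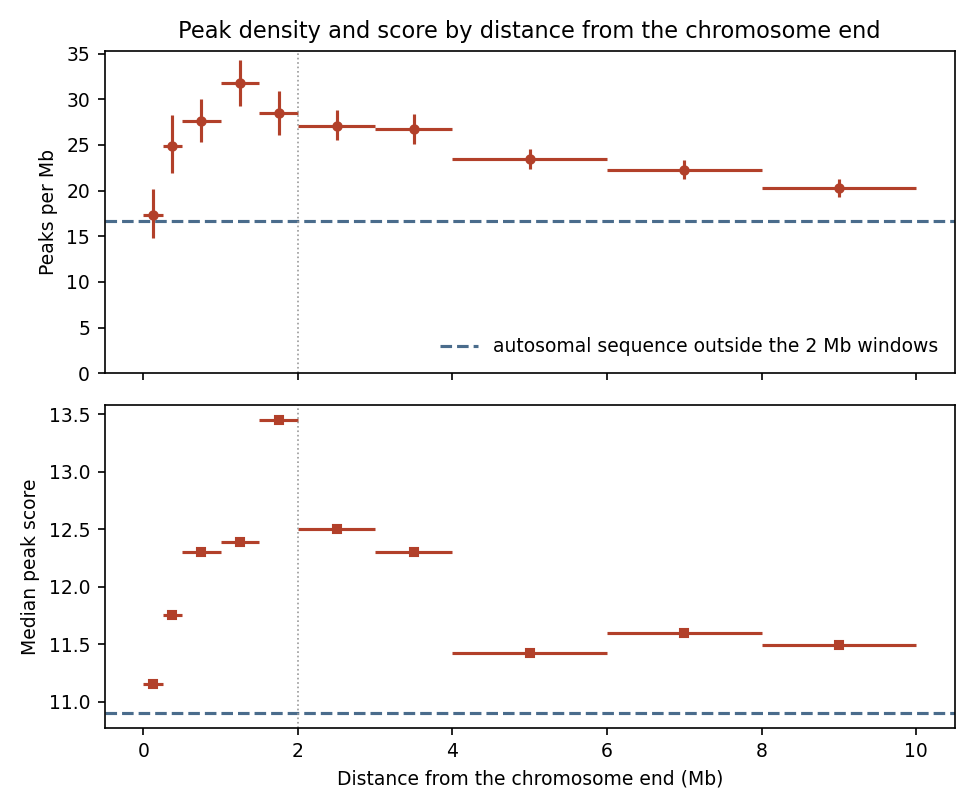
Upper panel, peaks per Mb, and lower panel, median peak score (unit not stated; axis does not start at 0), by distance from the chromosome end in Mb over the 39 ends that hold a gene locus; horizontal bars span each distance class and vertical bars are 95% exact Poisson intervals. Density rises from 17.3 per Mb in the first 250 kb to 31.7 at 1 to 1.5 Mb and falls to 20.3 at 8 to 10 Mb, and dashed lines mark the autosomal values outside the windows.

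Beyond the last gene locus of its chromosome lay the centre of 5 peaks: 3 on chromosome 7 up to 71.0 kb past the PIP5K1P2 pseudogene, 1 on chromosome 8 and 1 on chromosome 18. The chromosome 18 peak, chr18:80247824-80248226 with a score of 15.95, lay 479 bases past the locus of PARD6G, a cell polarity gene, and 0.511 kb from its RefSeq start.

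Peaks near ends had higher scores. The median was 12.4 with quartiles of 9.87 and 18.0, against a median of 10.9 with quartiles of 9.08 and 14.1 elsewhere. Of the 2124 peaks, 819 (38.6%, 95% exact binomial interval 36.5 to 40.7%) reached the upper quartile of all autosomal scores, 14.2. The median was higher near the ends in 19 of 22 autosomes (exact sign test, two-sided, p = 0.000855) and lower on chromosomes 3, 4 and 19. Chromosome 2 had the widest gap, 14.1 against 10.5, while on chromosome 19 the order was 12.3 against 14.3. With windows of 500 kb the count was 14 of 22 (exact sign test, p = 0.286). The very highest scores of the list lay elsewhere: the highest score was 80.3 near an end and 1538 among the other autosomal peaks, 9 of which exceeded 100.

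The peak with the highest score lay at chr6:170452792-170453201, 0.293 Mb from the far end of chromosome 6 and 33.7 kb from the nearest listed locus, so it was intergenic. The second, at chr7:157299121-157299665 with a score of 75.35, was also intergenic, 16.7 kb from a noncoding locus. The third, chr17:81249218-81249620 with a score of 71.2, lay inside SLC38A10, a gene of an amino acid transporter family. The next was chr21:45591511-45591992, with a score of 68.05, which lay in the noncoding gene LOC107985485 and 28.7 kb from the start of the folate transporter gene SLC19A1. The fifth, chr12:132597390-132597823 with a score of 63.4, lay in a noncoding gene, LOC105370094, 1.42 kb from its start. Of these 5 peaks, 1 was centred in a protein-coding gene and none covered a RefSeq transcript start.

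The peaks were also slightly longer and closer together. The median length was 415 bases near ends and 406 elsewhere, with 41.3% of the end-window peaks and 47.0% of the others at the shortest length in the list, 402 bases. The median was longer near the ends in 17 autosomes, shorter in 4 and tied in 1 (exact sign test, p = 0.0072). The median distance to the nearest other peak was 10.9 kb against 16.3 kb, shorter in 19 of 22 autosomes (exact sign test, p = 0.000855; 16 of 22 and p = 0.0525 with windows of 500 kb). A neighbour under 5 kb away was found for 19.4% (17.8 to 21.2%) of end-window peaks and 13.2% of the others. Spacing was not separated from density.

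The densest stretches of 100 kb each held 12 peaks. The first, on chromosome 21, spans ITGB2, which encodes the beta chain shared by the leukocyte integrins, and PTTG1IP. The second, on chromosome 7, overlaps PTPRN2 and begins before that locus. Stretches with 11 peaks were found at the far end of chromosome 12 with no coding gene, at the far end of chromosome 16 around ZNF469, and at the start of chromosome 5 around the amino acid transporter genes SLC6A18 and SLC6A19. The median score in these stretches ranged from 13.6 to 25.4, the highest being that at ZNF469. The sparsest ends held at most 2 peaks (far end of chromosome 1) or 3 peaks (start of chromosome 18) in any 100 kb. Elsewhere on the autosomes the fullest stretch of 100 kb held 14 peaks.

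Of 1874 gene loci centred in the windows, 500 held at least 1 peak, and 207 of those were loci of a single gene. A locus in the RNA table can join overlapping genes, so a peak is assigned to the joint locus. The PTPRN2 locus, chr7:157539056-158587788, held 65 peaks over 1049 kb, or 62.0 per Mb, with a median score of 14.9 and a highest score of 61.4. PTPRN2 encodes a receptor-type phosphatase-like protein of secretory vesicles. The locus of the RNA editing gene family member ADARB2 followed with 24 peaks over 560.2 kb. The joint locus of CACNA1B, a neuronal calcium channel subunit, EHMT1, a histone H3 lysine methyltransferase, and ARRDC1 held 23 peaks over 519.0 kb. By density the order was different. SLC19A1 and COL18A1, the latter the source of endostatin, held 12 peaks in 139.3 kb (86.2 per Mb), with a median score of 19.7. A noncoding locus at chr22:49414524-49657542 held 19 peaks (78.2 per Mb). The loci of RAD52, a recombination gene, with ERC1 (17 peaks), of the inositol phosphatase gene INPP5A with NKX6-2 (12), of SNTG2 (12), of PCBP3 (12) and of LRRK1 with ALDH1A3 (11) made up the rest. Together 10 loci held 207 of the 2124 peaks on 4294 kb.

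Gene loci covered 55.2% of the windows and 53.3% of other autosomal sequence. Of the end-window peaks, 61.0% (58.9 to 63.1%) were centred in a locus, against 58.4% elsewhere. The difference of 2.59 percentage points passed Fisher's exact test (two-sided, p = 0.0181) and not the exact sign test over autosomes (higher in 13 of 22, p = 0.523). It was 0.389 points (Fisher's exact test, p = 0.856) among peaks at or above the upper quartile of the score. With narrower windows it was larger, 6.37 points at 500 kb (Fisher's exact test, p = 0.009) and 6.05 points at 1 Mb (Fisher's exact test, p = 0.00017). The exact sign test over autosomes passed at neither width. The share was higher in 14 of 22 at 500 kb (exact sign test, p = 0.286) and in 16 of 22 at 1 Mb (exact sign test, p = 0.0525). Fisher's test takes neighbouring peaks as independent, so its p-values are too small. Inside loci the density was 26.7 per Mb near ends and 18.2 elsewhere, a ratio of 1.47 (95% interval 1.38 to 1.55). Outside loci it was 21.0 and 14.8 per Mb, a ratio of 1.42 (1.32 to 1.52). The excess in 2 Mb windows was thus present both in and outside gene loci. With windows of 500 kb the ratio outside loci was 0.928 (0.783 to 1.09, exact conditional binomial test, p = 0.399).

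The end windows hold more genes than the interior of the autosomes, with a median of 69 genes per window against 33 in 1323 interior windows of the same length. Windows were therefore set side by side by their number of genes, as a description with no test. In the class of 60 to 79 genes, 11 end windows had 32.2 peaks per Mb and 111 interior windows had 21.4. With 80 or more genes, 14 end windows had 28.5 per Mb and 106 interior windows 20.8. With 20 to 39 genes the values were 26.3 in 6 end windows and 17.3 in 529 interior windows. The class of 40 to 59 genes had the opposite order, with 19.7 in 7 end windows and 22.2 in 272. The 1 end window with under 20 genes, at the start of chromosome 3, had 10.5 against 10.1.

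**Figure D4:**
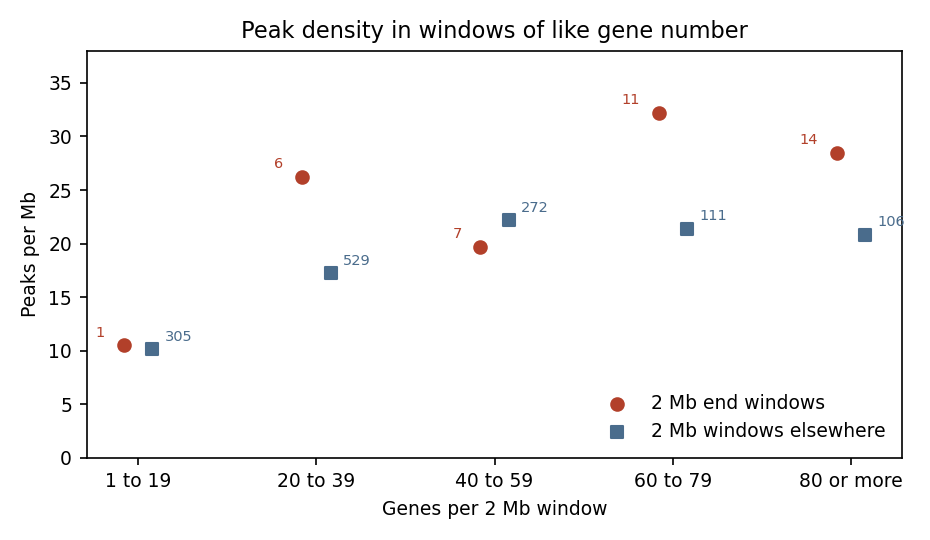
Peaks per Mb (vertical axis) in 2 Mb windows grouped by the number of genes they hold (horizontal axis), for windows at chromosome ends (circles) and elsewhere (squares); small numbers give the windows in each class. End windows lie higher in the classes of 20 to 39, 60 to 79 and 80 or more genes and lower in the class of 40 to 59.

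Close to transcript starts the densities near ends and elsewhere differed by less than the counting error. RefSeq starts were at hand for 21 autosomes, which hold 2051 of the end-window peaks; chromosome 8 was not used here. Within 0.5 kb of a start, peak density was 10.5 per Mb near ends and 11.1 elsewhere, a ratio of 0.948 (95% interval 0.554 to 1.52, exact conditional binomial test, p = 1). From 0.5 to 1 kb it was 21.6 and 24.2 per Mb (ratio 0.89, 0.607 to 1.26). From 1 to 2 kb the ratio was 1.33 (1.07 to 1.64), from 2 to 5 kb 1.45 (1.28 to 1.64) and from 50 to 100 kb 1.54 (1.36 to 1.74). Among the distance classes counted, which end at 100 kb, the density in both places was lowest within 0.5 kb of a start. Sequence farther than 100 kb from any start was not included. The number of end-window peaks within 0.5 kb was 18, so a ratio as large as that of the 2 Mb windows as a whole lies inside the interval, and whether ratios differ between distances was not tested. The median distance to the nearest start was 18.1 kb near ends and 34.0 kb elsewhere.

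**Figure D5:**
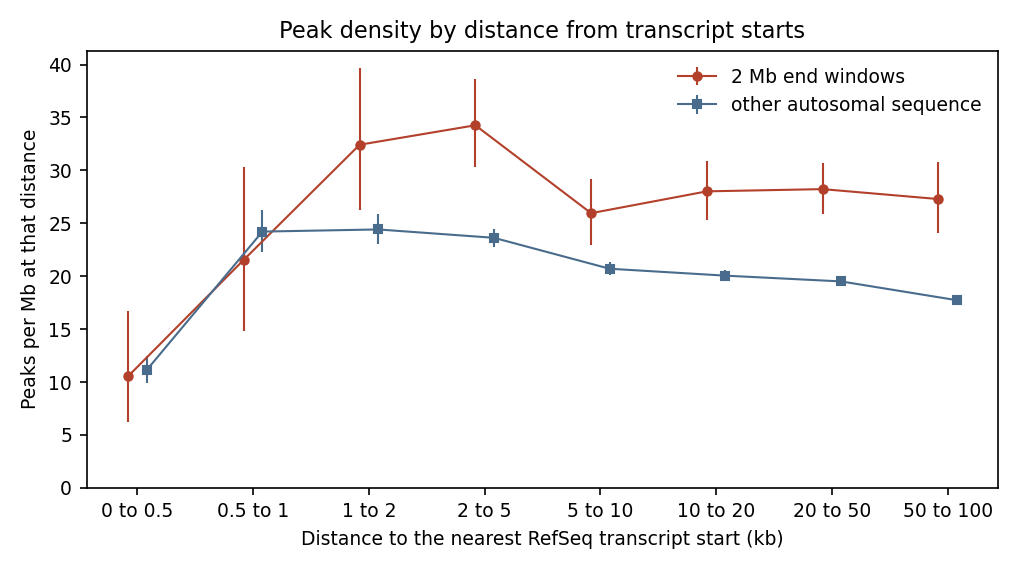
Peaks per Mb of sequence at each distance class from the nearest RefSeq transcript start, for the 2 Mb end windows (circles) and other autosomal sequence (squares) of 21 autosomes; bars are 95% exact Poisson intervals. The lines meet within 1 kb of starts, at 10.5 and 11.1 per Mb in the first class, and stand apart from 1 kb outwards.

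Of 2031 RefSeq promoters in the windows, 15 (0.739%, 95% exact binomial interval 0.414 to 1.22%) overlapped a peak. The share elsewhere was 171 of 31694 (0.54%, 0.462 to 0.626%). As a background, 1.83% of all 300-base windows near ends and 1.24% elsewhere overlapped a peak. Promoters near ends were richer in GC, with a median of 66.3% against 58.0%. The motif described above was found in 35.7% (33.6 to 37.8%) of end-window promoters, in 24.2% elsewhere and in 24.9% of all. It stood in 4 of the 15 end-window promoters with a peak and in 725 of all 2031. Promoters were counted per transcript start, so 1 gene can enter more than once. The 2031 belong to 1642 gene symbols and the 15 to 13. Several PRKAR1B promoters with the motif share the same peak and are counted separately among the 4. The intervals take all starts as separate units. The guanine runs printed above thus came from a small minority of end-window promoters, and 4 of the 725 with the motif overlapped a peak.

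Of a fixed list of 20 genes drawn up for promoter G-quadruplexes or telomere functions, 6 lie in the end windows. Whether each listed gene has such a fold or function was not checked. TERT, the telomerase catalytic subunit, held 2 peaks, the higher with a score of 10.4, and the peak nearest to its start was 1.95 kb away. The locus of RTEL1, the helicase that unwinds telomere loops, held 4 peaks with a highest score of 23.2, and 3 of them were inside the gene, including the LOC124904954 sequence printed above. AXIN1, a scaffold of the Wnt pathway, held 3 peaks with a highest score of 17.4. The joint locus of STK11, a kinase that activates AMPK, held 1 peak with a score of 34.4, outside the RefSeq gene itself. HRAS and FGFR3 held none, and their nearest peaks were 3.95 kb and 35.7 kb from their starts. The 5 alpha globin genes at the start of chromosome 16 held no peak. Of 30 other genes on the list, 28 lie in the windows. DIP2C held 10 peaks, SBNO2 held 5 with a highest score of 43.3, SHANK3, a synaptic scaffold gene, held 3, and the mucin genes MUC2 and MUC5AC held 2 and 1. FASN, FOXC1, IRF4 and SOX18 held none.

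RNA of the genes in the windows was compared with that of all tested genes, from the authors' deposited tables, which give 1 FPKM value per condition with no value per sample. The 24 h and 72 h comparisons use the same 3 h DMSO control as the 3 h comparison, so time in culture and PDP cannot be told apart there. At q under 0.05, 0.108% of all tested genes were higher with PDP at 3 h and 0.00678% lower in the authors' deposited table. In the windows it called 1 of 1062 higher and 0 lower, and 12 (1.13%) and 4 (0.377%) had an unadjusted p under 0.05, against 1.39% and 0.522% of all tested genes. That gene was EHMT1, whose joint locus held 23 peaks. Its FPKM was 30.3 in the control and 1137 with PDP in the authors' deposited table (q = 0.0434), but 28.7 at 24 h and 27.6 at 72 h, with no call at either time.

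Calls were more frequent at 24 h, with 9.21% of all tested genes higher and 8.29% lower in the authors' deposited table. Of 1098 tested genes in the windows, 89 (8.11%) were higher and 71 (6.47%) lower. Among those with a peak in their locus 42 of 566 were higher and 27 lower, and among those without one 47 of 532 were higher and 44 lower. By 72 h the shares over all tested genes were 19% higher and 12.8% lower in the authors' deposited table. The windows held 209 higher (18.9%) and 165 lower (14.9%) of 1104. With a peak in the locus 96 of 578 were higher and 77 lower, and without one 113 of 526 were higher and 88 lower. At q under 0.01 the authors' deposited tables called 0% of all tested genes higher at 3 h, 5.12% higher and 4.77% lower at 24 h and 13.1% higher at 72 h, against 0%, 4.74%, 3.64% and 12.4% in the windows. With a log2 fold change of at least 1 as well as q under 0.05, 4.84% of all tested genes were higher and 1.07% lower at 24 h in the authors' deposited table, against 4.10% and 0.911% in the windows. At 72 h 10% were higher and 5.25% lower, against 9.24% and 6.88%. The median log2 fold change in the windows was 0.08 at 72 h, against 0.13 over all tested genes. At q under 0.05 the shares of called genes in the windows were below those of all genes in both directions at 24 h. At 72 h the share called higher was near that of all genes and the share called lower was above it. The shares of genes with a peak were below those of genes without one in each direction at 24 h and 72 h. None of these differences was tested.

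Among called genes with a peak in the locus, the largest increases at 24 h in the authors' deposited table were those of SYNGR3, a synaptic vesicle protein gene (FPKM 1.62 to 7.94), and GRIN1, the obligate subunit of the NMDA receptor (0.28 to 1.34). IL17REL and ELFN1, a synaptic adhesion gene whose locus held 5 peaks, followed with log2 fold changes of 1.81 and 1.70. Their control values were low, 0.428 and 0.780 FPKM. The largest decreases in that authors' deposited table were those of ERVK3-1, ZNF587B, LINS1 and ANKMY1, in that order, from a log2 fold change of -1.03 for ERVK3-1 to -0.89 for ANKMY1. At 72 h the authors' deposited table placed the noncoding RP11-830F9.7 and RP11-230F18.5 first, with log2 fold changes of 3.49 and 2.96. These rest on low control values, with FPKM of 0.180 to 2.03 for RP11-830F9.7 and 0.831 to 6.45 for RP11-230F18.5. TCTE3, a dynein light chain gene, rose from 2.25 to 17.0 FPKM in the authors' deposited table, and GPR146, a receptor gene in a locus with 7 peaks, from 2.51 to 15.6. The largest decreases in the authors' deposited table were those of MIR22HG, the host gene of a microRNA, from 2.36 to 0.265 FPKM, and of CYP2E1, an ethanol-oxidising cytochrome, from 5.76 to 0.859. LIME1, in the joint locus of RTEL1, and SNED1 followed with log2 fold changes of -2.38 and -2.27 in the authors' deposited table.

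None of the 6 window genes from the list for promoter G-quadruplexes or telomere functions was called at any time in the authors' deposited tables. Of their 18 tests, 2 had an unadjusted p under 0.05, TERT at 72 h and HRAS at 24 h. Over all tested genes such a p was found for 29.6% at 24 h and 40.4% at 72 h in the authors' deposited tables. TERT had 5.78 FPKM in the control and 9.03 with PDP at 24 h in the authors' deposited table, with no call, and 9.60 with PDP at 72 h, where its unadjusted p was 0.0301. RTEL1 had 13.1 and 15.4 at 24 h and 12.2 and 9.66 at 72 h in those authors' deposited tables. Of the other listed genes with peaks in their locus, DIP2C and SHANK3 were called higher at 24 h and 72 h, TPPP at 24 h, and SBNO2 and GNB1 at 72 h. The peaks of the joint TPPP locus all lay outside the RefSeq gene itself. ZMYND11, a chromatin reader gene with 2 peaks, was called lower at both times. Of listed genes with no peak, FOXC1, a transcription factor gene, was called lower at both times, and SOX18 and DVL1 were called higher at 72 h. FASN, POLRMT, WASH1, FRG1, ARHGDIA and AGRN, among others without a peak, were called at no time.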

How the data were processed

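Genomic DNA pull-down (2 samples) and input (2) and RNA (2 for each of 4 groups) of HEK 293T cells were grouped by their labels. Per the submitters' processing notes, the build was GRCh38.p7 and the tools included HOMER 4.9.1, Bowtie2 2.2.9 and Picard, and Cufflinks 2.2.1 and HISAT2 2.0.5, with no role stated; their settings are not given in the sources used here. The deposited peak list holds 1 score per peak, averaged over both replicates, per the file itself, with no unit stated. The authors' deposited FPKM is pooled per condition and scaled separately per table, and each deposited p-value and q-value is from the authors' own test. Gene loci, largest locus ends and gene names came from the RNA tables, and of 58083 gene IDs 56980 matched a symbol. RefSeq starts and promoters are of GRCh38.p14; of 15394 starts with a gene of the same symbol in the RNA table, 97.4% lay in that locus or within 1 kb of it.

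Peaks were counted by their centre with Python 3.11.15, pandas 2.3.3, NumPy 2.4.6 and SciPy 1.17.1. Densities were compared by an exact conditional binomial test, autosomes by an exact sign test and shares by Fisher's exact test, all two-sided. The density ratio with its interval and the sign test of scores were also run on simulated peaks. Those peaks were placed independently, without the clustering of real peaks, and the other tests were not run on them. Intervals are 95% and exact, and cover counting error only. Named were the 5 peaks of highest score, the 10 loci with the most peaks, the 5 densest and 5 sparsest ends, peaks at the 2 Mb limit, up to 4 called genes in each direction and time with FPKM of at least 1 and a peak in the locus, and genes of 3 lists. Stretches of 100 kb, outermost peaks and printed sequences were chosen after their values were seen. The members and lists were chosen with earlier results of these data known. Alternatives were other window widths, score minimums, merging of peaks, length definitions, left-out autosomes and RNA thresholds.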

Additional observations from a re-analysis of the deposited data

Results flagged for a closer look

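Chromosome X was outside the comparisons, since the rule takes autosomes. By the same rule its end windows held 49 peaks. All 49 lay in the far-end window and 0 in the start window. Over both windows the density was 12.3 peaks per Mb (95% exact Poisson interval 9.06 to 16.2), against 19.1 per Mb over the rest of the chromosome. The empty start window lowers the first value. Taken alone, the far-end window was denser than the rest of the chromosome, with no interval computed. The median score was 12.45 near the ends and 11.0 elsewhere. The start of chromosome X is pseudoautosomal sequence shared with chromosome Y, and whether reads were placed there was not tested.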

How the results depend on the processing

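Of 148 alternatives, 131 were counted as leaving a result the same. For peak comparisons this meant the same direction and the same side of the threshold, including results that stayed without a call. For RNA counts and medians it meant only a limited change in size. The 165 genes called lower at 72 h, for example, became 110 at q under 0.01 and were counted as the same. Many of the 131 only left out a single autosome, so the count is not a measure of robustness. With 500 kb windows, 15 of 22 autosomes were denser near their ends (p = 0.134), 14 had a higher median score (p = 0.286) and 16 a shorter gap (p = 0.0525), by exact sign tests, and the density ratio outside loci was 0.928. With 5 Mb windows the count of denser autosomes was 15 (exact sign test, p = 0.134) and the difference in the share of peaks in loci was 0.773 points (p = 0.291). That share difference was 1.84 points (Fisher's exact test, p = 0.199) for peaks at or above the median score and 0.389 (p = 0.856) at or above the upper quartile, where the share was higher in 10 and lower in 12 autosomes. The cause of these changes was not tested. At q under 0.01 the authors' deposited tables called 0 genes of the windows higher at 3 h, 52 higher and 40 lower at 24 h and 137 higher at 72 h. With a log2 fold change of at least 1 they called 45 and 10 at 24 h and 102 and 76 at 72 h; the shares over all tested genes stand beside the RNA results above. Leaving out single autosomes gave density ratios of 1.39 to 1.54. No paired analysis was possible because the peak list averages both replicates and the RNA tables pool them, and for the same reason no replicate could be left out. Library depth is unknown.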
